A study of Mus musculus with 24 samples.

Results

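The mitochondrial genome carries genes for core subunits of the respiratory chain, and the mitochondrially encoded respiratory chain genes described here were chosen by name: mt-Nd1, mt-Nd2, mt-Nd4, mt-Nd5, mt-Nd6, mt-Cytb, mt-Co1, mt-Co2, mt-Co3 and mt-Atp6. Of these 10 genes, 9 had a row among the 48985 genes of the count table, and mt-Nd4 was not analysed here. RNA was measured in 24 libraries of F121/9 cells, a female mouse embryonic stem cell line with one 129/Sv and one CAST/EiJ genome, grown on gelatin in serum-free medium with leukemia inhibitory factor and inhibitors of MEK and GSK-3β. There were 5 recombinations, which the labels call d3, d6, i7, i12 and i10. Each had a parental line, whose genotype is given as control, and recombined clones made from it. The clones were 12 and 21 of d3, 16 of d6, 7 and 12 of i7, 18 of i10 and 10 of i12. Each of the 12 groups had 2 replicates, called biological duplicates in the series' design text, and each clone is a single clone of cells. The question of the study was how gene expression changed on recombination.

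Mitochondrial DNA is a small circle that is passed on by the mother. Both of its strands are copied into long RNAs that are cut into single messages, mostly at the tRNA genes lying between them, and most messages then receive a short poly(A) tail. The proteins they encode are the proton-pumping or electron-carrying cores of 4 of the complexes of the inner membrane, where they assemble with many subunits that are encoded in the nucleus and imported. mt-Nd1, mt-Nd2, mt-Nd5 and mt-Nd6 encode membrane subunits of complex I (NADH dehydrogenase), mt-Cytb encodes the cytochrome b of complex III, mt-Co1, mt-Co2 and mt-Co3 encode the catalytic core of complex IV (cytochrome c oxidase), and mt-Atp6 encodes the proton-channel subunit of ATP synthase.

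In GENCODE M21 on GRCm38, the gene models of the complex I members are at chrM:2751-3707 (mt-Nd1), chrM:3914-4951 (mt-Nd2), chrM:11742-13565 (mt-Nd5) and chrM:13552-14070 (mt-Nd6). The model of mt-Cytb is at chrM:14145-15288, those of the complex IV members are at chrM:5328-6872 (mt-Co1), chrM:7013-7696 (mt-Co2) and chrM:8607-9390 (mt-Co3), and mt-Atp6 is at chrM:7927-8607. All 9 are genes of a single exon, and mt-Nd6 alone lies on the minus strand, with its end overlapping that of mt-Nd5. mt-Atp6 overlaps mt-Atp8 at chrM:7766-7969 and shares its last base with mt-Co3. Reads from such overlaps cannot be placed with certainty, because the counting program and its strand setting are not given in the sources used here. The 3′ ends of the models are shown for a pair of members that end in a full stop codon and a pair that do not, since the libraries were made from poly(A) RNA. The letters in capitals are the stop codon or what the gene model holds of it; a single T is completed to a stop codon by the poly(A) tail, as is known for these messages.
mt-Nd1: gtaccaccatacataTAG
mt-Nd6: gagattactcgagatTAA
mt-Co3: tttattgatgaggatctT
mt-Cytb: tactaaaattatatccaT
The lengths of mt-Co3 and mt-Cytb, 784 and 1144 bases, leave a remainder of 1 when divided by 3, and those of the other 7 leave none.

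Pieces of mitochondrial DNA have also been copied into nuclear chromosomes, and some of the copies had rows of their own in the count table. Gm13340, annotated as an unprocessed pseudogene at chr2:22588103-22589647, matched mt-Co1 over all of its 1545 bases with 97.61% identity. Its neighbour Gm13341 at chr2:22587291-22587962 matched mt-Co2 with 95.91% identity. The stretch of 60 bases with the most differences is shown for each pair, because both members of a pair had their own row in the count table and the copies' counts went almost entirely to the allele that had the fewer counts of mt-Co1 and mt-Co2. Capitals mark the bases that differ.
mt-Co1 bases 460 to 519: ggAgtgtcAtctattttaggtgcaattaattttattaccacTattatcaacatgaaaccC
Gm13340: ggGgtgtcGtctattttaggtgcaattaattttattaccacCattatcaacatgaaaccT
mt-Co2 bases 445 to 504: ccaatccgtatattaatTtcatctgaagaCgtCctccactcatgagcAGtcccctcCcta
Gm13341: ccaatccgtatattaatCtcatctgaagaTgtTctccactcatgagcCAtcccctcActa
The mt-Co1 stretch, at chrM:5787-5846, differed from its copy at 4 bases, and the mt-Co2 stretch, at chrM:7457-7516, at 6. The reads were 75 bases long, and the share of all 75-base windows of a gene that occur letter for letter in a nuclear transcript of the annotation was 39.8% for mt-Co1 and 99.5% for mt-Co2. It was 99.9% for mt-Co3, 99.5% for mt-Atp6, 5.7% for mt-Nd2, 1.7% for mt-Nd5 and 0 for mt-Nd1, mt-Nd6 and mt-Cytb. The perfect matches of mt-Co2, mt-Co3 and mt-Atp6 are Gm28661, Gm28437 and Gm10925, which lie together on chromosome 1 and were not analysed here. The shared windows of mt-Co1 occur in Gm13340 or in Gm29216. Gm29216, also on chromosome 1, matched mt-Co1 over 483 bases with 99.79% identity and was not analysed here either.

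Total counts ran from 3286819 to 15581094 per library. Of the 8 embryonic stem cell markers with a row, Pou5f1, Nanog and Zfp42 among them, the levels summed to 5012 to 8308 CPM (counts per 1000000 counts) in the 24 libraries. Summed markers of feeder fibroblasts reached 3.93 to 25.7 CPM, of primitive endoderm 0.926 to 8.67, of early mesendoderm 4.23 to 60.8, and of neural cells 10.5 to 93.5, most of it Tubb3, so the labelled cell type was matched by its markers. Replicate 2 of the d3 parental line stood apart from the other d3 libraries in the mitochondrial genes. The medians of the fitted changes in the d3 clones are given with and without it. The test across the parental lines, the correlations and the d3 mean of the summed share include it.

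Together the 9 genes held 2.79% to 8.40% of the counts of a library, with a median of 4.34%. In the parental lines, replicates 1 and 2 gave 5.97% and 3.12% in d3, 8.40% and 7.79% in d6, 3.93% and 4.04% in i7, 3.22% and 5.02% in i12, and 3.49% and 5.81% in i10. The d3 clones gave 7.86% and 7.51% (clone 12) and 7.99% and 6.28% (clone 21), and d6 clone 16 gave 4.36% and 7.32%. The i7 clones gave 4.27% and 3.86% (clone 7) and 3.54% and 3.86% (clone 12), i12 clone 10 gave 3.74% and 5.40%, and i10 clone 18 gave 2.79% and 4.32%. The highest values were thus in d3 and d6, and the i7 libraries lay close together while the replicates of i12 and i10 were far apart. In bulk RNA, more mitochondrial transcripts per cell and less of all other RNA give the same share and cannot be told apart.

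**Figure D1:**
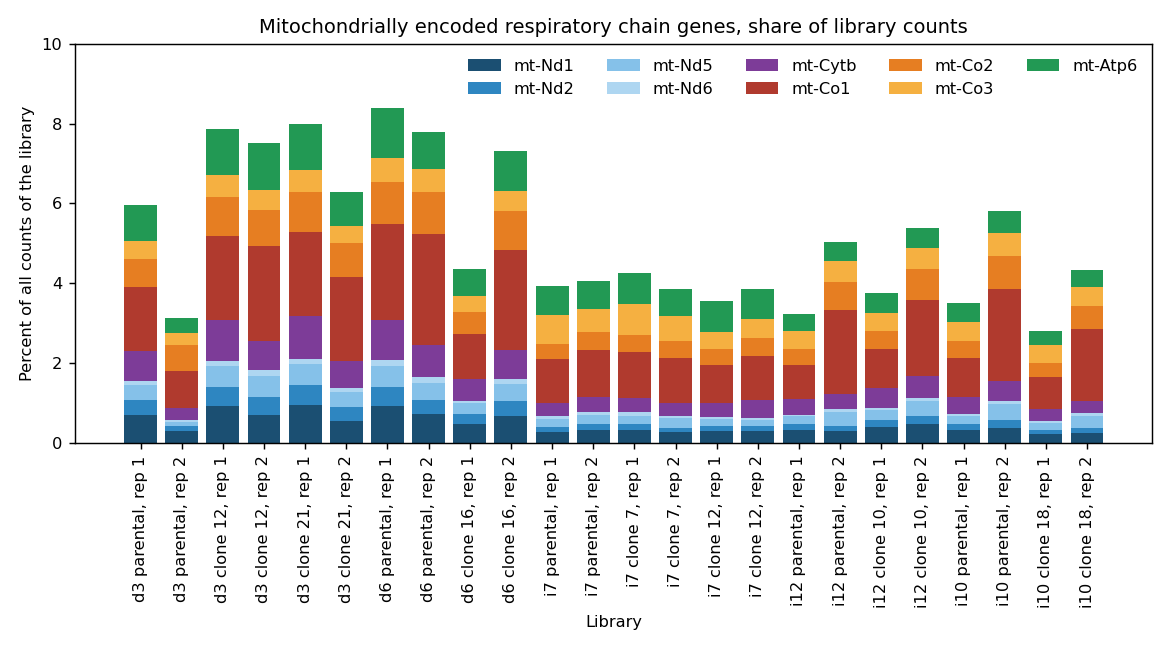
Percent of all counts of each of the 24 libraries (vertical axis) held by the 9 genes, stacked in colours, by group and replicate (horizontal axis). The stacks reach from 2.79% in i10 clone 18 replicate 1 to 8.40% in d6 parental replicate 1, and d3 parental replicate 2, at 3.12%, is the lowest stack of d3.

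In CPM per kilobase of gene, mt-Atp6 had the highest median over the 24 libraries, 10510, followed by mt-Co1 (8973), mt-Co2 (8948), mt-Co3 (6468), mt-Cytb (4080), mt-Nd1 (3634), mt-Nd2 (1580), mt-Nd5 (1532) and mt-Nd6 (1393). The genes for ATP synthase and complex IV were thus above cytochrome b by this measure, with complex I genes at the low end. The counts are of reads assigned to an allele, and what was done with reads that carry no variant is not given. A gene's level here may depend on how many of its bases differ between the strains, which was not tested. The step from mt-Nd1 to mt-Nd2 was the only one between neighbours that had the same direction in 24 of 24 libraries. mt-Cytb was above mt-Nd1 in 12 of 24, mt-Atp6 above mt-Co1 and mt-Co1 above mt-Co2 in 15 each, and mt-Nd5 above mt-Nd6 in 16. The direction of these steps thus varied from library to library, and differences between genes were not tested. mt-Co2 was above mt-Co3 in 18 libraries, mt-Co3 above mt-Cytb in 19 and mt-Nd2 above mt-Nd5 in 19. Counts of the nuclear copies are not part of these levels. Gm13341 held a median of 16.9% of the counts of mt-Co2 and Gm13341 together, and Gm13340 held 4.31% of those of mt-Co1 and Gm13340. How reads were assigned between gene and copy is not given, so the order among the highest genes may depend on it. Among the mitochondrial genes outside the set, the small subunit genes mt-Atp8 and mt-Nd4l had medians of 1980 and 973 on the same scale. The ribosomal RNAs mt-Rnr2 and mt-Rnr1 had 188 and 104. All of these levels, those of the messages included, apply to poly(A)-selected RNA. A gene's place in the order, such as that of mt-Nd6 at the low end, may depend on how well its RNA was selected. This was not tested.

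**Figure D2:**
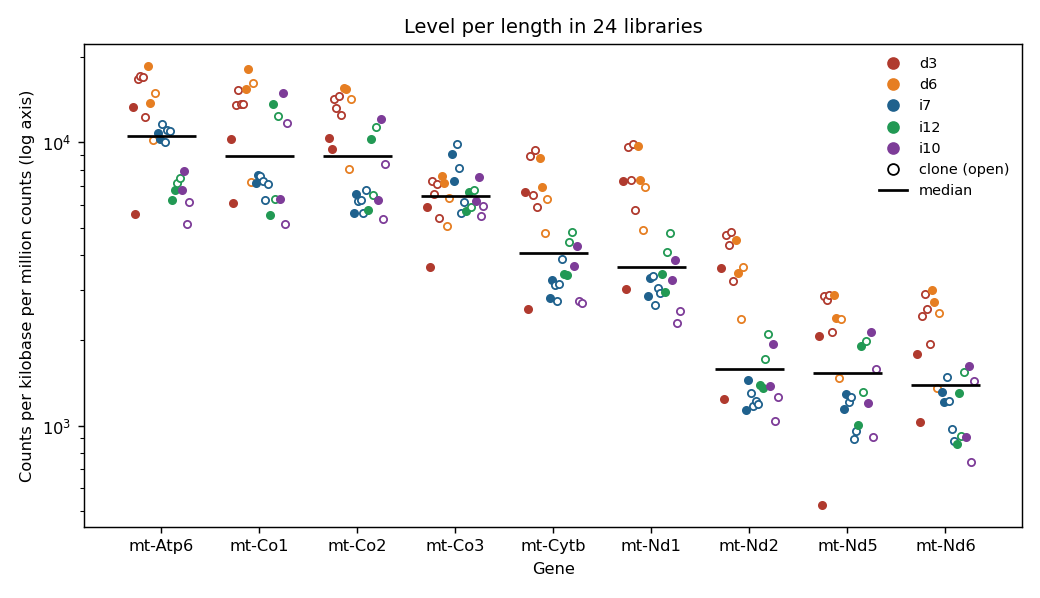
CPM per kilobase (vertical log axis) of the 9 genes (horizontal axis, by median), with 1 point per library, filled for parental lines and open for clones, and a line at the median. The medians fall from 10510 for mt-Atp6 to 1393 for mt-Nd6, and the points of neighbouring genes overlap.

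The counts of the 9 genes were assigned mostly to the 129S1 allele: 89.3% to 94.2% of them per library, against 47.9% to 49.1% for all genes outside the mitochondrial genome. mt-Nd1, mt-Nd2, mt-Nd6, mt-Co2, mt-Co3 and mt-Atp6 each had nearly all of their counts on 129S1, and the lowest share in any of the 24 libraries was 99.90% (mt-Atp6). For mt-Nd6 the CAST allele had 2 of 188403 counts over all libraries. mt-Cytb had 99.45% to 99.97%. Of 16240 tested genes outside the mitochondrial genome, 3.24% had a 129S1 share of at least 99%, and 4.76% had one of at most 1%.

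The exceptions were mt-Co1 and mt-Nd5. mt-Co1 had a 129S1 share of 74.7% to 82.8% (median 77.6%), and mt-Nd5 one of 80.9% to 83.9% (median 82.9%). These genes held 99.4% of the 900613 CAST counts of the set. The CAST share of mt-Nd5 was narrow: its 129S1 share was 80.9% to 81.6% in i12 and in the i10 parental line, 82.0% and 83.6% in i10 clone 18, and 81.5% to 83.9% in d3, d6 and i7. For mt-Co1, d3 parental replicate 2 had the highest 129S1 share, 82.8%, and no other library was above 79.1%. Outside the set, the ribosomal RNA mt-Rnr1 had 94.7% to 98.7% and mt-Rnr2 had 90.3% to 95.9%.

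**Figure D3:**
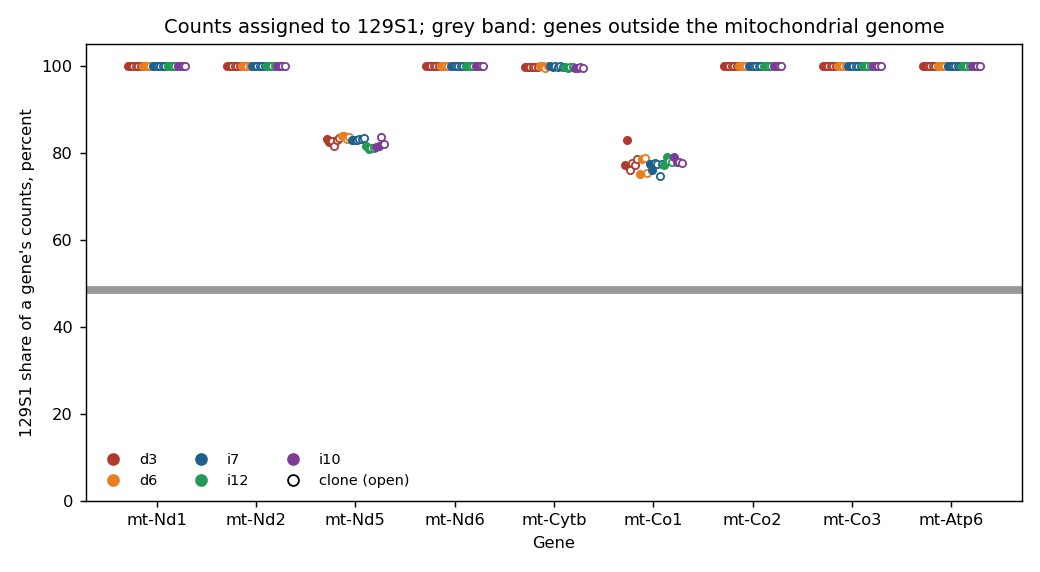
Percent of a gene's counts assigned to the 129S1 allele (vertical axis, from 0) for the 9 genes (horizontal axis), 1 point per library, filled for parental lines and open for clones. The points of 7 genes lie above 99%, those of mt-Nd5 between 80.9% and 83.9% and those of mt-Co1 between 74.7% and 82.8%, while the grey band at 47.9% to 49.1% is the range for genes outside the mitochondrial genome.

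The nuclear copies printed above had nearly all of their counts on CAST. Gm13340 had 144101 CAST and 260 129S1 counts over the 24 libraries, and Gm13341 had 291514 and 236. Another copy, Gm28438 at chr1:24612775-24613119, matched mt-Nd3 with 99.71% identity and had 159385 counts on 129S1 and 2 on CAST; mt-Nd3 itself was not analysed here. Gm13340 held 1.92% to 5.75% of the counts of mt-Co1 and Gm13340 together, and Gm13341 held 13.2% to 20.4% of those of mt-Co2 and Gm13341. If the counts of the copies are added, the 129S1 share of mt-Co1 becomes 72.3% to 78.1% and that of mt-Co2 79.6% to 86.8%. Beside the 80.9% to 83.9% of mt-Nd5, the range of mt-Co1 is then lower without overlap, and that of mt-Co2 is wider on both sides. mt-Nd5 matched Gm4076 on chromosome 13 over 954 bases with 95.18% identity, and this copy was not analysed here. Another copy of mt-Nd5, Gm11407 on chromosome 4, had at most 2 counts in a library. The part of the copies in the CAST counts of the members was not tested.

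The ratio of 129S1 to CAST counts could be tested in the 4 members with enough counts on both alleles: mt-Co1, mt-Nd5, mt-Cytb and mt-Atp6. The quasi-likelihood test of edgeR, with p-values adjusted over 10795 genes by the Benjamini-Hochberg method and called under 0.05, called 0 of 4 in each of the 7 comparisons of a clone with its parental line. The share of all genes called was 0.0463% for clone 12 and 3.41% for clone 21 of d3, 0.0463% for the d6 clone, 0.00926% for clone 7 and 2.33% for clone 12 of i7, 0.00926% for the i12 clone and 0% for the i10 clone. An unadjusted p under 0.05 was reached by 1 of the 4 in d6 clone 16 (mt-Cytb) and by 1 in i12 clone 10 (mt-Atp6), and by none of them in the other clones. The differences were small for mt-Nd5, from -0.08 to 0.13 on the log2 scale with standard errors of 0.10. Across the 5 parental lines 0 of 4 were called, with 1.29% of all genes called and 1 member, mt-Cytb, at an unadjusted p under 0.05.

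The CAST counts of mt-Cytb were few but uneven. In d6, the parental replicates had 108 and 26 CAST counts beside 99259 and 50381 129S1 counts, and clone 16 had 325 and 63 beside 73750 and 64191. Both replicates numbered 1 were thus above both replicates numbered 2, and within each number the clone was higher than the parental line. The log2 change of the ratio was -1.51 (SE 0.70, adjusted p = 1 by edgeR). When the fit also took up differences between same-numbered replicates of one recombination (the replicate block), it was -1.71 and its adjusted p 0.00141, in a fit that called 0.287% of all genes. A joint test of whether the changes of the ratio differ between the 5 recombinations called 0 of 4 members without the block (2.93% of all genes called) and 1, mt-Cytb, with it (adjusted p = 0.00229 by edgeR, 3.36% of all genes called). In the parental lines the 129S1 share of mt-Cytb ran from 99.45% in i10 replicate 1 to 99.97% in i7 replicate 1.

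The mix of the 9 genes changed from replicate to replicate in a common direction. mt-Co1 made up a larger part of their counts in replicate 2 than in replicate 1 in 12 of 12 groups, and mt-Co2 in 11 of 12. mt-Nd1, mt-Nd2 and mt-Atp6 made up a larger part in replicate 2 in 1 of 12 groups each, mt-Cytb in 2, mt-Co3 in 3, mt-Nd6 in 6 and mt-Nd5 in 7. These are parts of a fixed whole, so a larger part for mt-Co1 leaves less for the rest. As a share of all counts of a library, mt-Co1 was higher in replicate 2 in 10 of 12 groups. On that scale mt-Co2 and mt-Nd5 were higher in 8 groups each, and mt-Nd6, mt-Co3 and mt-Atp6 in 6. mt-Nd1, mt-Nd2 and mt-Cytb were higher in 5 each. The change of mt-Co1 in the mix was widest in i12 and i10, and those of mt-Co2 and mt-Nd5 were widest in the d3 parental line. mt-Co1 went from 26.6% to 41.9% of the 9 genes' counts in the i12 parental line, and from 28.5% to 42.0% in i10 clone 18. In the i7 parental line the step of mt-Co1 was short, from 28.2% to 29.3%, while mt-Co3 went from 18.1% to 14.1%. The labels say nothing of what the numbers stand for, and the part of batch or culture in these steps was not tested.

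Of 90 pairs of recombinations (10 for each of the 9 genes), the ranges of a gene's part in the mix did not overlap in 22. mt-Co3 had 6 of these, mt-Nd2 and mt-Atp6 had 4 each, and mt-Co1 and mt-Cytb had 0. A part in the mix is defined only for the 9 genes, so no share over all genes can be set beside the 22. These differences were not tested. mt-Co3 was 12.5% to 18.1% of the 9 genes' counts in the 6 libraries of i7 and 6.75% to 9.13% in the 6 of d3, with no overlap. mt-Atp6 was 17.2% to 21.3% in i7 and 9.17% to 13.3% in i12, again with no overlap. In d3 parental replicate 2, mt-Co2 was 20.8% and mt-Nd5 3.07% of the counts of the set, against 9.82% to 14.4% and 4.51% to 6.95% in the other 23 libraries. Over the 24 libraries, which share their depth and their total, the log2 levels of the 36 pairs of members correlated with Pearson's r from 0.077 to 0.986, with a median of 0.817.

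**Figure D4:**
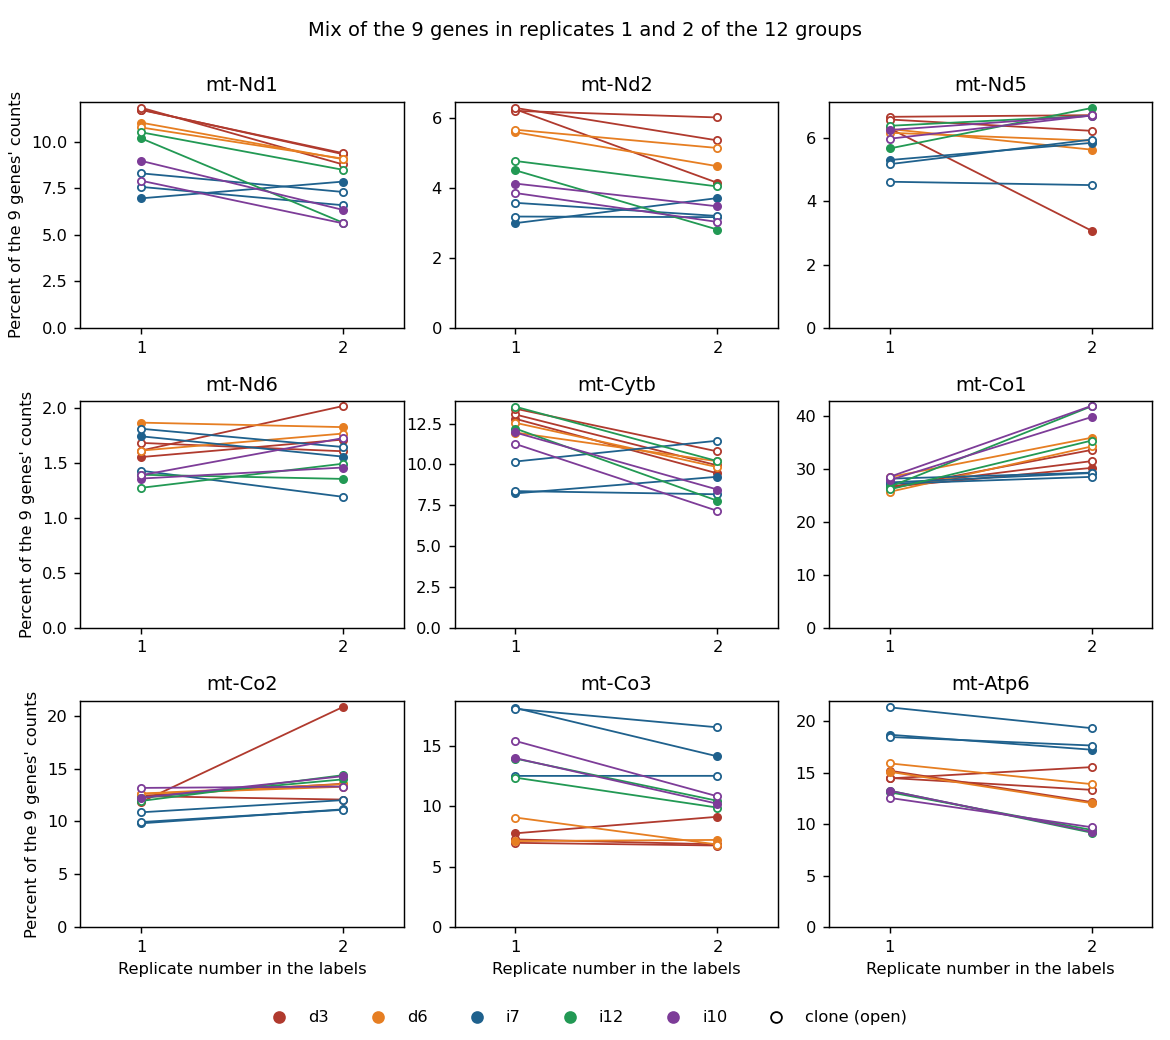
Percent of the 9 genes' counts held by each gene (vertical axes, from 0) in replicates 1 and 2 (horizontal axes), with 1 line per group, coloured by recombination and with open points for clones. The lines of mt-Co1 rise in 12 of 12 groups, those of mt-Nd1, mt-Nd2 and mt-Atp6 fall in 11 of 12, and the d3 parental line has the steepest fall in mt-Nd5 and the steepest rise in mt-Co2.

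Across the 5 parental lines, edgeR's quasi-likelihood test over 16253 genes called 4 of the 9 members, against 6.64% of all genes: mt-Nd2 (adjusted p = 0.0184), mt-Nd1 (0.0191), mt-Cytb (0.0358) and mt-Atp6 (0.0360). mt-Nd1 held 0.699% and 0.291% of the counts in d3, 0.925% and 0.705% in d6, 0.273% and 0.318% in i7, 0.328% and 0.283% in i12, and 0.313% and 0.368% in i10. Both d6 libraries and d3 replicate 1 were above the rest, and d3 replicate 2 fell among the libraries of i7, i12 and i10. mt-Nd2 held 0.372% and 0.129% in d3, 0.469% and 0.359% in d6, 0.118% and 0.150% in i7, 0.145% and 0.141% in i12, and 0.144% and 0.201% in i10, the same pattern. mt-Cytb was highest in d6 with 1.00% and 0.794%, then 0.764% in d3 replicate 1, and 0.295% to 0.491% in the other 7. mt-Atp6 held 1.27% and 0.938% in d6, 0.907% and 0.379% in d3, 0.735% and 0.697% in i7, and 0.427% to 0.538% in i12 and i10, so i7 stood between. The remaining members had adjusted p of 0.0612 (mt-Nd6), 0.0830 (mt-Co2), 0.189 (mt-Co3), 0.284 (mt-Nd5) and 0.305 (mt-Co1). For mt-Co1, the i12 replicates at 0.858% and 2.10% lay on either side of both i7 replicates, at 1.11% and 1.19%. Shifts between replicates 1 and 2 also correlated over genes across recombinations. Pearson's r was 0.397 to 0.603 between d3 and d6 groups and 0.5 to 0.582 between i12 and i10 groups. It was 0.147 to 0.419 between d3 or d6 and i12 or i10, and -0.205 to 0.229 between i7 and the rest. The p-values cover only the spread within lines. Line and a shared handling of libraries cannot be told apart.

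The count of 4 depended on single libraries: with the remaining library of a line assumed to vary like the other groups, it was 0 without d6 parental replicate 1 or without i7 parental replicate 1, and 2 without i7 parental replicate 2 or either i12 parental replicate.

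Each clone was then compared with its parental line. In d3 clone 12 the 9 members were fitted higher by 0.47 (mt-Co2) to 1.14 (mt-Nd5) on the log2 scale, with a median of 0.82 against 0.01 for all genes. Both libraries of clone 12 were above both parental libraries for 9 of 9 members, which held for 11.1% of all genes. The members vary together (median r 0.817 over the 24 libraries), so 9 of 9 members are not 9 separate observations. The same holds for the counts of members in the other clones. mt-Nd5, for example, held 0.524% and 0.505% of the counts in clone 12 and 0.376% and 0.0957% in the parental line (log2 change 1.14, SE 0.47). For mt-Atp6 the values were 1.14% and 1.17% against 0.907% and 0.379% (log2 change 0.85, SE 0.29). None of the 9 passed the test (lowest adjusted p = 0.996 by edgeR, with 0.0123% of all genes called), and 7 of 9 had an unadjusted p under 0.05, as did 713 of the 16253 genes. Outside the set, the overlapping gene mt-Atp8 was fitted higher by 2.01 (SE 0.50, adjusted p = 0.996 by edgeR). Without d3 parental replicate 2 the log2 changes were 0.48 (SE 0.43) for mt-Nd5, 0.37 (SE 0.26) for mt-Atp6 and 1.30 (SE 0.43) for mt-Atp8.

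In d3 clone 21 the fitted changes were 0.36 to 0.95 with a median of 0.66, and both clone libraries were above both parental libraries for 4 of 9 members, mt-Nd5, mt-Nd6, mt-Co1 and mt-Co2, against 10.5% of all genes. None was called (adjusted p = 1.00 for each by edgeR, 0.0554% of all genes called; 1 of 9, mt-Cytb, and 387 of the 16253 genes at an unadjusted p under 0.05). Both comparisons share the d3 parental libraries, and both rest on replicate 2 of that line. Without it the medians were 0.37 in clone 12 and 0.20 in clone 21, with 0 called. Without parental replicate 1 they were 1.42 and 1.28, with 6 and 5 of 9 called beside 4.74% and 3.63% of all genes. There the parental arm is replicate 2 alone, its spread is taken from the other groups, and the calls restate the low values of that library.

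In d6 clone 16 the 9 members were fitted lower, by -0.60 (mt-Nd6) to -0.39 (mt-Atp6) with a median of -0.49. Both clone libraries lay below both parental libraries for 6 of 9 members, which held for 8.99% of all genes. mt-Cytb held 0.548% and 0.721% in the clone and 1.00% and 0.794% in the parental line (log2 change -0.53, SE 0.31). The gap came mostly from replicate 1, in which the 9 genes together held 4.36%, against 7.32% in replicate 2. None was called (adjusted p = 1 by edgeR, 0.0123% of all genes called, 0 of 9 at an unadjusted p under 0.05). The median was -0.18 without clone replicate 1 and -0.81 without clone replicate 2.

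i10 clone 18 was also fitted lower, by -0.56 (mt-Nd1) to -0.22 (mt-Nd6) with a median of -0.41. Both clone libraries lay below both parental libraries for 5 of 9 members (mt-Nd1, mt-Nd2, mt-Cytb, mt-Co3 and mt-Atp6), against 8.64% of all genes. mt-Nd1 held 0.220% and 0.242% in the clone and 0.313% and 0.368% in the parental line (SE of the log2 change 0.32). The median was -0.12 without parental replicate 2 and -0.70 without clone replicate 2. None was called (adjusted p = 1 by edgeR, 0% of all genes called, 0 of 9 at an unadjusted p under 0.05).

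i12 clone 10 had changes of -0.01 (mt-Co1) to 0.50 (mt-Nd1) with a median of 0.20, and both clone libraries were above both parental libraries for 4 of 9 members (mt-Nd1, mt-Nd2, mt-Cytb and mt-Atp6), against 9.57% of all genes. mt-Nd1 held 0.393% and 0.458% in the clone and 0.328% and 0.283% in the parental line. The median turned to -0.02 without parental replicate 1. Again none was called (adjusted p = 1 by edgeR, 0% of all genes called, 0 of 9 at an unadjusted p under 0.05).

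In i7 clone 7 the changes were within -0.03 and 0.15, and no member had both clone libraries outside the parental range, which held for 13.8% of all genes upwards and 11.9% downwards. In i7 clone 12, mt-Co3 was at 0.443% and 0.483% against 0.713% and 0.571% in the parental line (log2 change -0.41, SE 0.22, adjusted p = 0.887 by edgeR), and mt-Nd5 and mt-Nd6 were also below the parental libraries. mt-Cytb was at 0.360% and 0.442% against 0.324% and 0.374%, yet it and mt-Atp6 were above the parental libraries after scaling. That made 2 members higher and 3 lower, shares near the 24.2% and 25% of all genes. None was called in clone 7 (adjusted p = 1, 0% of all genes called) or in clone 12 (0.0246% of all genes called) by edgeR, and 0 of 9 had an unadjusted p under 0.05 in either.

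**Figure D5:**
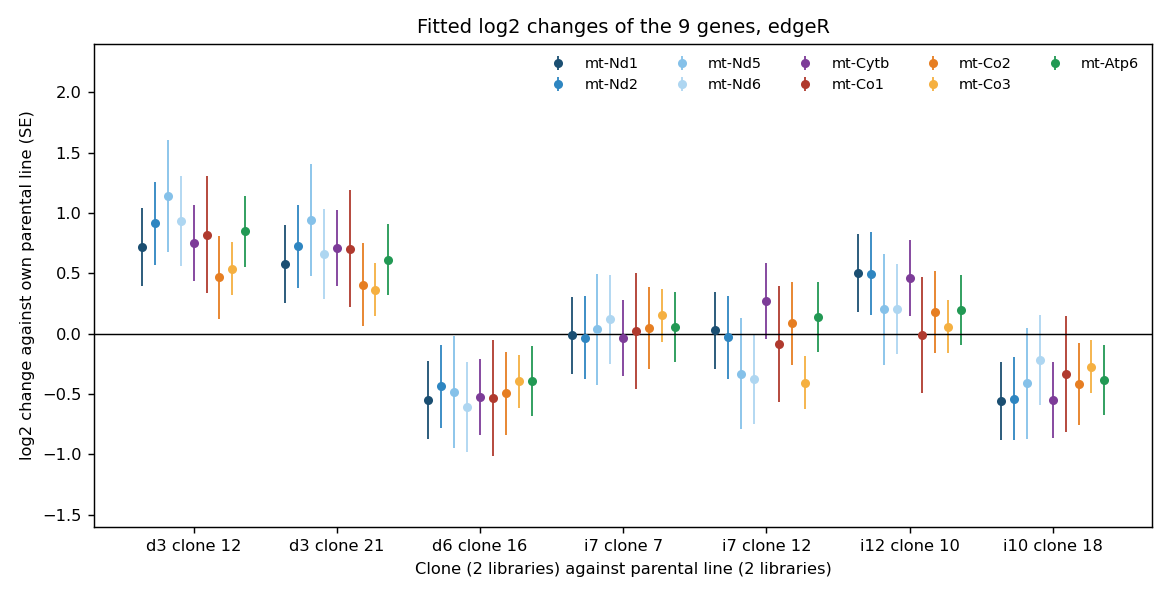
Fitted log2 change of the 9 genes (vertical axis, 1 point per gene with its standard error) in the 7 clones against their own parental lines (horizontal axis), 2 libraries against 2. The points of d3 clones 12 and 21 lie above 0 with medians of 0.82 and 0.66, those of d6 clone 16 and i10 clone 18 below it with medians of -0.49 and -0.41, and none passed the test.

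With the replicate block, again 0 of 9 members were called in each of the 7 comparisons by edgeR. For clones 12 and 21 of d3 the lowest adjusted p were 0.249 and 0.246, with 0.0123% and 0.123% of all genes called and 9 of 9 members at an unadjusted p under 0.05 in both, beside 2618 and 2048 of the 16253 genes. The d6 clone had 0.415, with 0.0861% of all genes called and 6 members under 0.05 unadjusted, beside 836 genes. For clone 12 of i7 it was 0.127 (mt-Co3), with 6.27% of all genes called and 1 member under 0.05 unadjusted, beside 3268 genes. The i12 clone had 0.808, and the i10 clone and clone 7 of i7 had 1, with 0% of all genes called in each and 2, 4 and 0 members under 0.05 unadjusted, beside 959, 374 and 296 genes. A joint test of whether the effects of the 5 recombinations differ called 0 of 9 members without the block (adjusted p = 1 for each by edgeR, 0.0123% of all genes called). With the block it also called 0 of 9 (adjusted p from 0.124, 0.08% of all genes called). Unadjusted p under 0.05 were reached by 3 of 9 members without the block, beside 112 of the 16253 genes, and by 9 of 9 with it, beside 1255.

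The nuclear partners of these genes were followed in 8 lists of 129 genes: nuclear subunits of complexes I to IV and of ATP synthase, and genes for mitochondrial DNA maintenance, for mitochondrial transcription and RNA processing, and for the regulation of mitochondrial biogenesis. Of these, 119 were tested. In the d3 clones the lists of nuclear subunits had medians opposite to those of the mitochondrial members. In clone 12 they were -0.28 for complex I (32 genes tested), -0.36 for complex III (7), -0.41 for complex IV (12) and -0.45 for ATP synthase (16), against 0.01 for all genes. In clone 21 they were -0.39, -0.26, -0.41 and -0.30, against -0.01. The lists for DNA maintenance and for transcription and RNA processing had medians of 0.06 and 0.00 in clone 12. These too rest on d3 parental replicate 2: without it the medians in clone 12 were 0.01, -0.08, -0.07 and -0.09, and in clone 21 -0.01, -0.05, -0.03 and 0.02. None of the 119 genes was called in any of the 7 clone comparisons when no block was fitted (the genes with an unadjusted p under 0.05 were 21 for clone 12 and 13 for clone 21 of d3, 8 for clone 12 of i7 and 0 for the other clones; over all 16253 genes the same comparisons had 713, 387 and 1006).

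Across the parental lines 7 of the 119 were called by edgeR, or 5.88% beside the 6.64% of all genes. They were the complex I subunits Ndufb4 (adjusted p = 0.00717), Ndufb7 (0.0360) and Ndufb2 (0.0485), the complex III subunit Uqcr10 (0.0380), the ATP synthase subunit Atp5e (0.0429), Grsf1, an RNA-binding protein of mitochondrial RNA granules (0.0312), and Elac2, which cuts the 3′ ends of tRNAs (0.0371). Mean levels of Ndufb4 were 114 ± 11.6 (SD, n = 2) CPM in d6, 140 ± 16.7 in i7, 148 ± 21.7 in d3, 192 ± 3.59 in i10 and 218 ± 18.6 in i12. Grsf1 was at 192 ± 6.19 (SD, n = 2) in d3 and 120 ± 16.5 in d6, and at 71.2 ± 3.06 in i7, 84.5 ± 26.5 in i12 and 85.8 ± 33.8 in i10. In i7 clone 12, where none of the 9 mitochondrial members was called, the block fit called 10 of the 119, 8 higher and 2 lower, or 8.40% beside the 6.27% of all genes, a share near the background. They included Twnk, the mitochondrial DNA helicase (log2 change 0.79, SE 0.15, adjusted p = 0.00547 by edgeR), the complex IV subunit Cox8a (0.67, SE 0.14, 0.00728), the complex III subunit Uqcrh (0.83, SE 0.20, 0.0227) and, lower, Rrm2b, a ribonucleotide reductase subunit (-0.99, SE 0.25, 0.0273).

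The genes whose log2 level over the 24 libraries was most like that of the 9 summed members, among 10726 genes outside the mitochondrial genome with a mean of at least 50 counts, were Gm13341 (Pearson's r 0.909), Srsf11 (0.858), Scap (0.799), Gm10330 (0.791) and 5830462I19Rik (0.788). Gm13341 is the copy of mt-Co2 printed above, Srsf11 encodes a splicing factor and Scap a sterol sensor. Among the genes least like the members were nuclear genes for mitochondrial proteins, the complex IV subunit Cox7a2 (-0.777) and the import channel subunit Timm50 (-0.760). The libraries share their replicate shifts and their totals, and the median r over all compared genes was 0.00.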

How the data were processed

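Poly(A) RNA of 24 libraries was read as 75-base single ends from a stranded kit, per the labels' protocols. The authors deposited raw counts, 1 whole number per gene, library and allele (129S1 or CAST), with no normalisation; STAR, SAMtools and mm10 are named in the submitters' processing notes without versions. The counting program, its annotation and what was done with reads that carry no variant are not given in the sources used here. Both alleles' counts were added, except for allele shares and ratios. Of the gene identifiers, 48838 matched GENCODE M21 without version. Of the 10 listed members, 9 had a row and all 9 passed the filter.

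edgeR 4.0.16 in R 4.3.3 (filterByExpr, TMM, quasi-likelihood, all 24 libraries, 1 coefficient per group, 12 residual degrees of freedom) gave adjusted p (Benjamini-Hochberg, called under 0.05); a second fit added a replicate block. Differences between replicates 1 and 2 correlated over genes within recombinations (r from 0.358 to 0.688 in 9 pairs of groups), so numbers were treated as pairing within a recombination; between recombinations r ran from -0.205 to 0.603. The block pairs nothing across parental lines. The ratio fit used genes whose counts averaged 10 or more on each allele. The p-values measure the spread between these replicates. The sequences were matched to nuclear transcripts with blastn 2.17.0. Alternatives used DESeq2 1.42.0, other scalings, filters and left-out libraries. Tests were tried on simulated data. A non-overlap was judged on counts scaled by TMM. The 5 genes most like the members were named by rank of r, the 2 least like as lowest; in lists, called genes were named, up to 3 per list and fit, by smallest p. The members and lists were chosen with earlier results of these data known. Counting error does not cover duplicate reads, and no molecular identifiers are described.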

Additional observations from a re-analysis of the deposited data

Results flagged for a closer look

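The summed share of the 9 genes lay on opposite sides of the parental mean in different recombinations. In d3 each of the 4 clone libraries was above the mean of the parental libraries, by 2.87 percentage points on average. In d6 both clone libraries were below it, with a mean difference of -2.25, and in i10 both were below it, with a mean of -1.10. In i7 and i12 the clone libraries lay on both sides of it. The difference between recombinations was not tested for the summed share, and the ranges of clone and parental libraries overlapped in i10. For the single members, the joint test of the effects called 0 of 9. The d3 value rests on a parental mean that holds the low replicate 2, and the lowest clone library, clone 21 replicate 2, was at 6.28% beside 5.97% in parental replicate 1.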

How the results depend on the processing

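Of 197 alternative values of the main results, 183 kept their direction and side of the threshold or stayed within 1.5 times the count, and no called value turned its direction. The exceptions follow, and their cause was not tested. Without a filter on low counts 5 members were called in d3 clone 12, 1 in d3 clone 21 and 8 across the 5 parental lines. The share of all genes called without the filter is not given here, so these counts have no background beside them. Leaving out each library in turn gave 0 to 6 called members in d3 clone 12 and 0 to 5 in d3 clone 21, the highest without d3 parental replicate 1, and 0 to 6 across the parental lines. With the replicate block 1 member (mt-Cytb) was called in d6 clone 16 for the ratio of 129S1 to CAST counts, and the block changed no other count of called members in the clone comparisons. Across the parental lines the fit with the block called 9 members for counts, beside 50% of all genes, and 1 for the ratio, beside 8.14%. That fit pairs nothing across these lines and takes the spread between replicates out of the error. These 2 counts are therefore no support for a difference. The 129S1 share of the set was 95.5% when each member had equal weight. Of the 63 fitted changes of a member in a clone, 22 had the other sign in at least 1 alternative, none of them called, and of 28 changes of the ratio 11 did. Adding the counts of Gm13340 and Gm13341 to mt-Co1 and mt-Co2, or using 129S1 counts alone for mitochondrial genes, both chosen after seeing the data, left 4 members called across the parental lines. The lowest count of a member in a library was 1557 (mt-Nd6).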
